A study of Sus scrofa with 6 samples.

Results

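Adiponectin and 8 genes of fat storage, ADIPOQ, PLIN1, CIDEC, ABHD5, DGAT2, AQP7, PCK1, TUSC5 and SMAF1, were followed through lymph node, spleen and thymus of RAG2-deficient and wild-type pigs. These 9 genes, of 4122 in the deposited tables, were selected on measured values of the same tables with the knockout comparison in view, so their levels and counts are descriptions and carry no test. The knockout pigs carried RAG2 knocked out on both alleles, the controls were wild-type littermates, and all were 3 months old. The series title describes immunodeficient pigs with the deletion of 1 amino acid. Each combination of tissue and genotype gave 1 library, 6 in all, so no difference has a replicate check; how many animals stand behind a library is not given in the sources used here.

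Fat cells store triglyceride in a large droplet coated by perilipin, and release fatty acids and glycerol from it by lipolysis. Adiponectin is a hormone secreted chiefly by fat cells. In mammals, lymph nodes commonly lie embedded in fat, and the thymus is gradually replaced by fat with age.

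Levels are in FPKM, fragments scaled for the length of the transcript and the size of the library, beside the number of fragments behind them. A gene counted as measured in a tissue if either of its libraries reached 1 FPKM. It was called if the log2 of the knockout to wild-type ratio, with a pseudocount of 1 FPKM, reached 1 in either direction. A fold divides 1 scaled fragment count by the other and carries a 95% Clopper-Pearson interval, while a level carries an exact Poisson interval. Where the wild-type library had 0 fragments, the fold was taken against a floor of 3 fragments in that library, which leaves out the counting error of the knockout, and the lower limit of the Clopper-Pearson interval stands beside it. All of these cover counting error only. Tissue tables were normalised separately, which bears on every level set side by side across tissues.

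The libraries held 1922562 to 2541724 fragments on listed genes. RAG2, the targeted gene, stood at 606 and 1072 FPKM in wild-type and knockout thymus, and at 0 to 5 fragments in each library of lymph node and spleen. A transcript level does not check a genotype that leaves the transcript in place. The wild-type tissues carried their defining markers: the 5 T-cell markers summed to 1292, 483 and 5431 FPKM in lymph node, spleen and thymus, and the 4 B-cell markers to 1493, 496 and 149.7 FPKM.

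In the knockout, all 9 were called higher in lymph node, 7 in thymus (all measured members but ABHD5) and 2 in spleen (AQP7 and PCK1). In lymph node, 15.3% of 2910 measured genes were called higher and 10.3% lower. In thymus, 8 of the 9 were measured, and 15.2% of all 2908 measured genes were called higher and 10.9% lower. In spleen, 6 were measured and 2 of these, CIDEC and DGAT2, were lower, against 8.88% of 2849 measured genes called higher and 10% lower. The median log2 ratio of the measured members was 6.34 in lymph node, -0.21 in spleen and 1.55 in thymus, beside medians of all measured genes of -0.00456, -0.0159 and -4.72e-05. With genes at 0 fragments in a library placed at their bound of 3 fragments, the members' medians were 5.53, 0.23 and 1.55, and with scaled counts in place of FPKM the spleen median was 0.02 to 0.06, so that its sign depends on these choices.

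Together the 9 genes took 143 fragments in the wild-type lymph node and 8195 in the knockout, or 0.00744% (Clopper-Pearson interval 0.00627 to 0.00876%) and 0.405% (0.397 to 0.414%) of the fragments on listed genes. In thymus they took 323 and 1566 fragments, 0.0127% and 0.0653%. In spleen they took 139 and 235 fragments, 0.00667% and 0.00934%. The knockout lymph node thus held more of these transcripts than any other library, and both thymus libraries held a larger share than the spleen and lymph node libraries other than that 1.

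**Figure D1:**
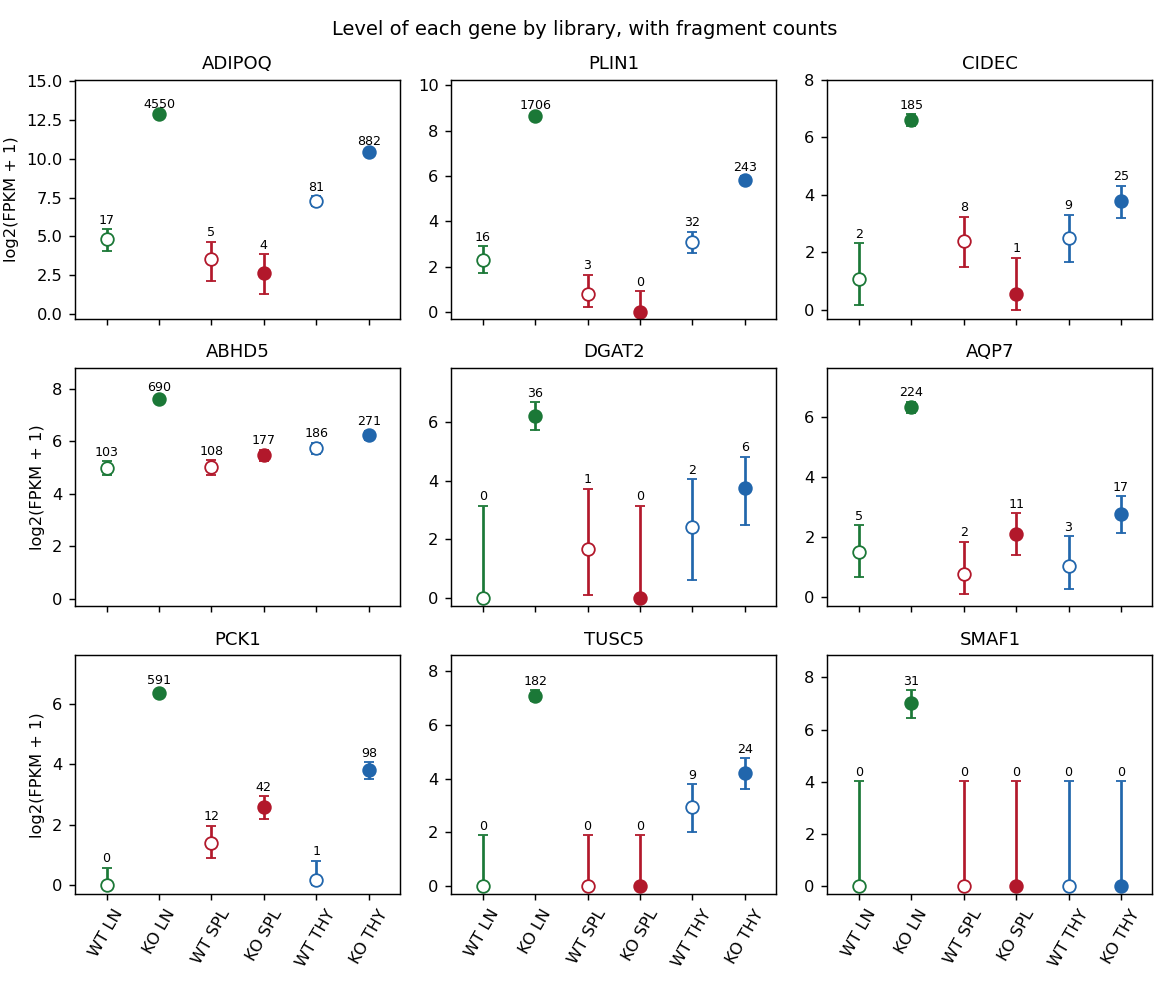
Level of each of the 9 genes as log2(FPKM + 1), with 1 panel per gene and 1 point per library (LN lymph node, SPL spleen, THY thymus; open points wild type, WT; filled points knockout, KO). Bars are exact Poisson intervals of the fragment count, printed above each point; the knockout lymph node is the highest library for all 9 genes, and 4 genes have 0 fragments in the wild-type lymph node.

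ADIPOQ encodes adiponectin (chromosome 13, 124633906 to 124646237 in Sscrofa11.1, gene identifier 397660). It stood at 27.2 and 7483 FPKM in the wild-type and knockout lymph node (17 and 4550 fragments), at 10.5 and 5.20 FPKM in spleen (5 and 4 fragments) and at 156 and 1376 FPKM in thymus (81 and 882 fragments). In the knockout lymph node it ranked 10th of the 4122 listed genes by FPKM, and in the knockout thymus 97th, against 1948th and 739th in the wild-type libraries. The thymus ratio was 10.6-fold (8.46 to 13.5), and the lymph node ratio of 256-fold (159.7 to 439.9) lay above it with intervals that do not overlap. The wild-type thymus stood above the wild-type lymph node, and the wild-type lymph node and both spleen libraries had overlapping counting intervals.

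PLIN1 encodes perilipin 1, the coat protein that shields the fat cell's droplet from lipases (chromosome 7, 55237517 to 55250797). Its levels were 3.93 and 399.3 FPKM in lymph node (16 and 1706 fragments), 0.718 and 0 FPKM in spleen (3 and 0 fragments) and 7.49 and 55.6 FPKM in thymus (32 and 243 fragments). The order of libraries was that of ADIPOQ down to the wild-type thymus, whose interval overlapped that of the wild-type lymph node. The thymus ratio was 7.41-fold (5.11 to 11.1) and the lymph node ratio 102-fold (62.6 to 179).

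CIDEC promotes the fusion of small droplets into large ones (chromosome 13, 66141836 to 66149801). It had 1.099 and 96.3 FPKM in lymph node (2 and 185 fragments), 4.29 and 0.452 FPKM in spleen (8 and 1 fragments) and 4.72 and 12.8 FPKM in thymus (9 and 25 fragments). Outside the knockout lymph node its levels were low, and each library's interval overlapped that of the next in order. The ratio was 88.5-fold (24.2 to 736) in lymph node and 2.71-fold (1.22 to 6.60) in thymus, and in spleen the knockout was 9.34-fold lower (1.25 to 415) on 9 fragments in all.

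ABHD5 activates the triglyceride lipase PNPLA2, the enzyme that opens lipolysis, and is made in many cell types (chromosome 13, 27006331 to 27053760). It was the most even of the 9, at 30.7 and 195 FPKM in lymph node (103 and 690 fragments), 31.3 and 43.6 FPKM in spleen (108 and 177 fragments) and 52.8 and 75.1 FPKM in thymus (186 and 271 fragments). The knockout library was the higher in all 3 tissues, and only the lymph node difference reached the size of a call. The ratios were 6.41-fold (5.20 to 7.96) in lymph node, 1.40-fold (1.10 to 1.80) in spleen and 1.42-fold (1.18 to 1.72) in thymus. PNPLA2 itself, picked with its values known, was 9.39-fold higher in lymph node, 1.98-fold in spleen and 2.94-fold in thymus, the spleen difference being short of a call.

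DGAT2 catalyses the last step of triglyceride synthesis (chromosome 9, 10032163 to 10066082). It had 0 and 73.6 FPKM in lymph node (0 and 36 fragments), 2.18 and 0 FPKM in spleen (1 and 0 fragments) and 4.28 and 12.5 FPKM in thymus (2 and 6 fragments). Only the knockout lymph node had more than 6 fragments. Its lymph node ratio was at least 11.5-fold against the floor (lower limit 8.87), while its calls in spleen and thymus rest on 1 and 8 fragments in all and had intervals that include equal levels.

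AQP7 is the channel through which glycerol leaves fat cells (chromosome 10, 33098746 to 33130245). It had 1.84 and 78.2 FPKM in lymph node (5 and 224 fragments), 0.717 and 3.34 FPKM in spleen (2 and 11 fragments) and 1.05 and 5.82 FPKM in thymus (3 and 17 fragments). The knockout was the higher library in each tissue, by 42.9-fold (18.1 to 133) in lymph node, 4.71-fold (1.03 to 43.7) in spleen and 5.53-fold (1.60 to 29.5) in thymus. Its lymph node and thymus intervals overlapped.

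PCK1 encodes cytosolic phosphoenolpyruvate carboxykinase, which makes glycerol backbone for triglyceride in fat cells and glucose in liver and kidney (chromosome 17, 57930507 to 57936523). It had 0 and 80.0 FPKM in lymph node (0 and 591 fragments), 1.66 and 4.95 FPKM in spleen (12 and 42 fragments) and 0.135 and 12.9 FPKM in thymus (1 and 98 fragments). All 3 knockout libraries stood above all 3 wild-type libraries, with intervals that do not overlap from the knockout lymph node down to the wild-type spleen. The ratio was at least 188-fold against the floor in lymph node (lower limit 153), 95.7-fold (16.8 to 3817) in thymus and 3.00-fold (1.55 to 6.25) in spleen, where ADIPOQ had 5 and 4 fragments.

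TUSC5, also known as TRARG1, is a membrane protein of fat cells that takes part in the traffic of the insulin-regulated glucose transporter (chromosome 12, 46623712 to 46634115). It had 0 and 134.8 FPKM in lymph node (0 and 182 fragments), 0 fragments in both spleen libraries, and 6.76 and 17.6 FPKM in thymus (9 and 24 fragments). The wild-type thymus held it and the wild-type lymph node and spleen had no fragment, where the floor of 3 fragments is worth 2.22 FPKM and the Poisson interval reaches 2.73 FPKM. The ratio was at least 58.0-fold against the floor in lymph node (lower limit 46.7) and 2.60-fold (1.17 to 6.36) in thymus.

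SMAF1 is the older name of adipogenin, a small membrane protein of fat cells that RefSeq lists as ADIG (chromosome 17, 41609367 to 41631142). It was detected in the knockout lymph node alone, at 128 FPKM from 31 fragments, a ratio of at least 9.89-fold against the floor (lower limit 7.57). The other 5 libraries had 0 fragments, where the floor of 3 fragments is worth 12.4 FPKM and the Poisson interval reaches 15.3 FPKM, so a level like that of TUSC5 in the wild-type thymus lies within what 0 fragments allow.

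**Figure D2:**
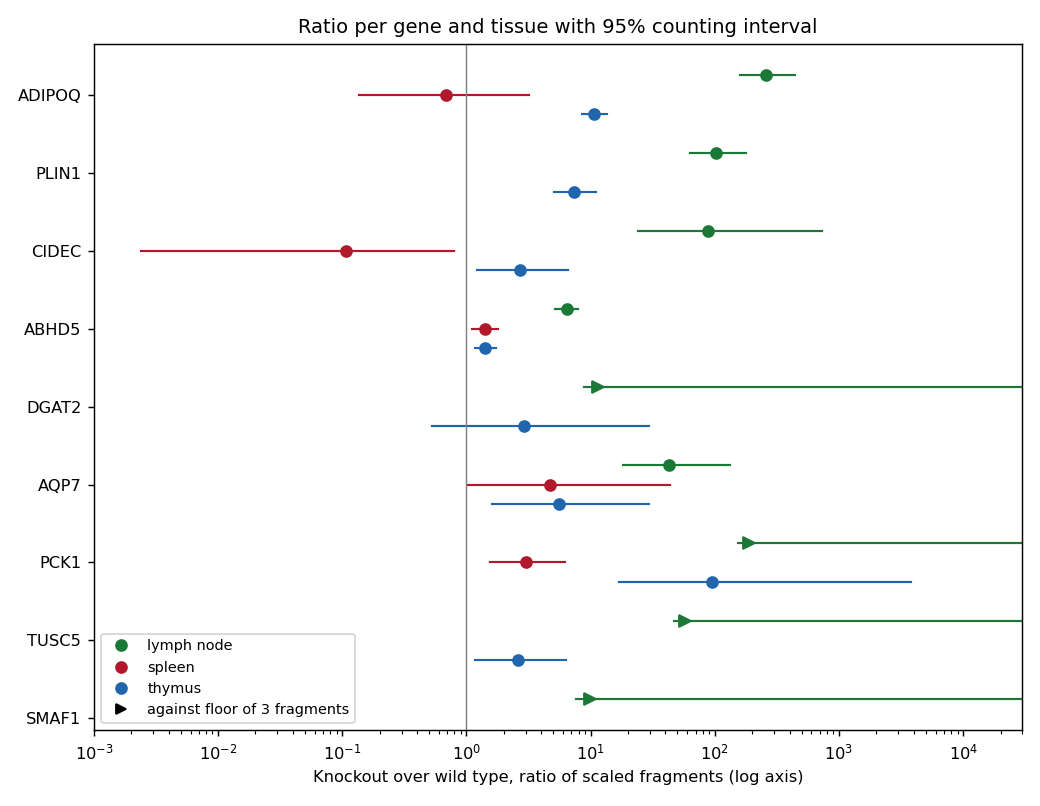
Ratio of scaled fragments, knockout over wild type, for each gene in lymph node (green), spleen (red) and thymus (blue) on a log axis. Lines are 95% Clopper-Pearson intervals, triangles mark the ratio against a floor of 3 fragments where the wild-type library had 0, and pairs with fewer than 4 fragments in all are left out; the lymph node ratio lies above the thymus ratio for ADIPOQ, PLIN1, CIDEC, ABHD5 and TUSC5 with intervals that do not overlap.

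The ratio was larger in lymph node than in thymus for all 8 genes measured in both. The log2 ratio in lymph node minus that in thymus ran from 2.13 for ABHD5 and 2.72 for PCK1 to 4.92 for ADIPOQ and 5.82 for TUSC5. Where a library is near 0 the pseudocount of 1 FPKM sets much of the ratio, so this order is not firm. PCK1 in thymus, on 1 wild-type fragment, had a log2 ratio of 3.62 but a fold of 95.7. For TUSC5 the lymph node log2 ratio was 10.4 with a pseudocount of 0.1 FPKM and 4.81 with 5 FPKM. The counting intervals of the folds overlapped between lymph node and thymus for DGAT2, AQP7 and PCK1. With 1 library each, the difference between tissues was not tested.

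Levels of different genes are comparable per length only as far as the gene models hold. In libraries with at least 10 fragments, 1 fragment was worth 0.118 to 0.138 FPKM for PCK1, 0.229 to 0.246 FPKM for PLIN1 and 1.56 to 1.92 FPKM for ADIPOQ, and 2.04 FPKM for DGAT2 and 4.14 FPKM for SMAF1 in the knockout lymph node. By FPKM the order in the knockout lymph node was ADIPOQ, PLIN1, ABHD5, TUSC5, SMAF1, CIDEC, PCK1, AQP7 and DGAT2. SMAF1 ranked 723rd of all genes there on 31 fragments and PCK1 1074th on 591.

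The make-up of the 9-gene total, counted in fragments and not per length, differed between libraries. ABHD5 took 72.0% (63.9 to 79.2%) of the members' fragments in the wild-type lymph node, 77.7% and 75.3% in the wild-type and knockout spleen, and 57.6% in the wild-type thymus. It took 8.42% (7.83 to 9.04%) in the knockout lymph node and 17.3% (15.5 to 19.3%) in the knockout thymus. ADIPOQ took 55.5% and 56.3% in those 2 knockout libraries, 25.1% in the wild-type thymus, 11.9% in the wild-type lymph node and 3.60% and 1.70% in spleen. The lymph node and thymus of the knockout thus resembled each other in the share of ADIPOQ, with intervals of 54.4 to 56.6% and 53.8 to 58.8%.

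Relative to ADIPOQ within a library, PLIN1 had 37.5 fragments per 100 in the knockout lymph node (35.4 to 39.6), 27.6 in the knockout thymus (23.8 to 31.8) and 39.5 in the wild-type thymus (25.4 to 60.2). It had 94.1 in the wild-type lymph node (44.5 to 198), above the interval of the knockout lymph node. PCK1 had 13.0 per 100 in the knockout lymph node (11.9 to 14.2), 11.1 in the knockout thymus (8.92 to 13.7) and 1.23 in the wild-type thymus (0.0309 to 7.08). The wild-type thymus thus lay below both knockout libraries for PCK1, and its interval for PLIN1 included the value of the knockout lymph node. In spleen the ratio was higher than in any library of the other tissues: PCK1 had 240 fragments per 100 of ADIPOQ in wild type (78.7 to 870) and 1050 in the knockout (381 to 4032). TUSC5 had 11.1 per 100 in the wild-type thymus (4.90 to 22.2) against 2.72 in the knockout thymus (1.73 to 4.08) and 4.0 in the knockout lymph node (3.43 to 4.64). CIDEC had the same 9 fragments as TUSC5 in the wild-type thymus, and 2.83 and 4.07 per 100 in the knockout thymus and lymph node.

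**Figure D3:**
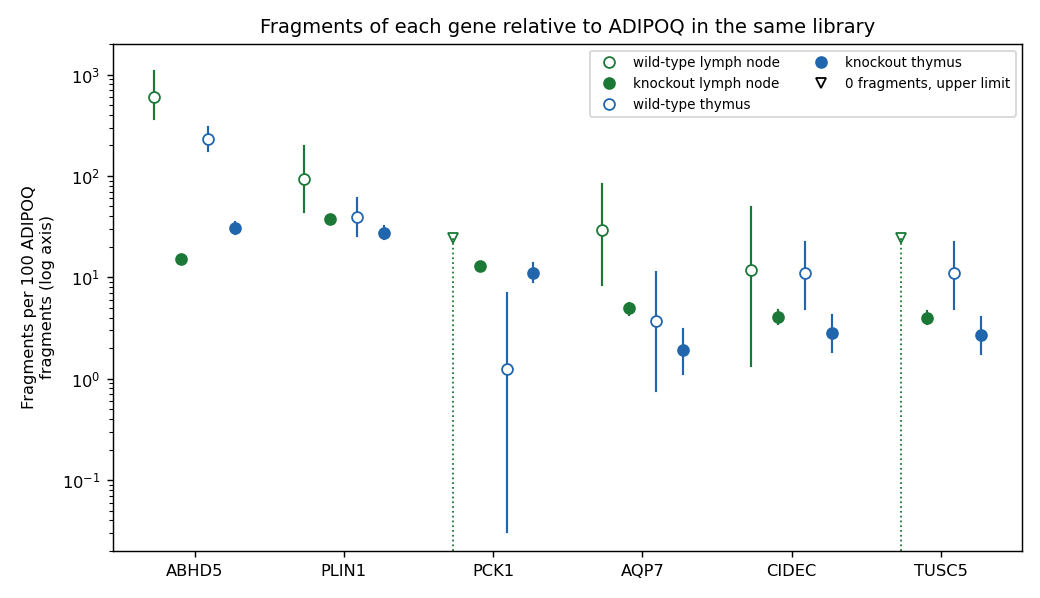
Fragments of 6 genes per 100 ADIPOQ fragments in the lymph node and thymus libraries, on a log axis, with 95% Clopper-Pearson intervals; triangles give the upper limit where a gene had 0 fragments. ABHD5 has 606 (lymph node) and 230 (thymus) in wild type and 15.2 and 30.7 in the knockout, while PLIN1 lies between 27.6 and 94.1 in all 4 libraries.

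Most other measured genes of the fat-cell, lipid and signalling lists were also called higher in the knockout lymph node, though not most of every list. With a threshold of 2 they were 20 of 49, no longer most. Of 64 further fat-cell and lipid genes in the tables, in 6 lists chosen with earlier results of these data known, 10 are listed at 0 in all 6 libraries. Called higher and lower were 30 and 2 of the 49 measured in lymph node, 8 and 3 of 45 in spleen, and 17 and 2 of 48 in thymus. Of these, 29, 7 and 16 of the higher genes also had a counting interval above equal levels. The lower genes in lymph node were the desaturase SCD, at 63.9 and 29.6 FPKM, and the fat storage protein FITM1, on 3 and 0 fragments. In thymus they were fatty acid synthase, FASN, at 147 and 62.9 FPKM, and FITM1, on 9 and 1 fragments. These 3, and genes named hereafter only to spell out a count of 5 or fewer, were picked with their values known.

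Among droplet coat and lipolysis genes 8 of 11 were higher in lymph node and 1 lower (median log2 ratio 2.31). CIDEA, a relative of CIDEC on droplets, stood at 7.99 and 363 FPKM, a ratio of 45.8-fold. Hormone-sensitive lipase, LIPE, the next enzyme of lipolysis after PNPLA2, stood at 23.1 and 338 FPKM (14.7-fold), and FITM2, which partitions fat into droplets, at 5.91 and 69.7 FPKM (11.9-fold). In thymus 4 of 11 were higher and 1 lower (median 0.69), with CIDEA at 8.47 and 34.3 FPKM, LIPE at 27.8 and 65.8 FPKM, PNPLA2 and the monoglyceride lipase MGLL, which ends lipolysis, at 24.1 and 117 FPKM. In spleen 1 of 10 was higher and 1 lower (median 0.56): the adrenergic receptor ADRB1 stood at 34.2 and 112 FPKM, and FITM1 had 4 and 0 fragments.

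Among genes of fatty acid uptake and triglyceride synthesis 6 of 12 were higher in lymph node and 1 lower (median 1.14). The fatty acid receptor CD36 stood at 260 and 1920 FPKM in lymph node and at 49.0 and 321 FPKM in thymus, and lipoprotein lipase, LPL, at 73.3 and 773 FPKM in lymph node (13 and 155 fragments) and at 289 and 266 FPKM in thymus (53 and 50 fragments). LPL, unlike ADIPOQ, was therefore not called in thymus. The fatty acid carrier FABP5 was 4.36-fold higher in lymph node and 7.19-fold higher in spleen, where ADIPOQ was not called. In spleen 2 of 12 were higher, FABP5 and the acyl-CoA synthetase ACSL1, and 0 lower (median -0.0307). In thymus CD36, the phosphatidate phosphatase LPIN1 and the acyltransferase AGPAT2 were higher and FASN lower, 3 and 1 of 12 (median 0.51).

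Genes of glycerol, glucose and insulin were higher in 4 of 7 cases in lymph node (median 1.35), 3 of 8 in spleen (median 0.89) and 1 of 8 in thymus (median 0.58), and 1 was lower, FBP1 in spleen. The thymus count was near the 15.2% of all measured genes called higher there. Pyruvate carboxylase, PC, which feeds PCK1 with its substrate, was the only gene of this list called higher in all 3 tissues. Its levels were 6.91 and 443 FPKM in lymph node (17 and 1147 fragments) and 2.67 and 10.7 FPKM in spleen (16 and 75 fragments). In thymus they were 23.6 and 82.1 FPKM (61 and 217 fragments). A PC fragment was worth less FPKM in spleen than in the other tissues, so its levels across tissues depend on the FPKM calculation. Like PCK1, PC was called higher in the knockout spleen, where ADIPOQ, on 5 and 4 fragments, was not called. The spleen ratio of ADIPOQ had an interval of 0.136 to 3.18. It overlaps those of PCK1 (1.55 to 6.25) and PC (2.32 to 7.38), so a difference between these genes and ADIPOQ is not shown. Glycerol-3-phosphate dehydrogenase, GPD1, was 13.3-fold higher in lymph node (8.67 and 115 FPKM), the aquaglyceroporin AQP3 3.21-fold, and the insulin receptor substrate IRS1 was the fourth. In spleen the other higher genes were glycerol kinase, GK, at 50.3 and 113 FPKM, and the mitochondrial relative of PCK1, PCK2, at 9.52 and 43.0 FPKM, while the gluconeogenic FBP1 stood at 85.9 and 26.3 FPKM. The insulin-regulated transporter SLC2A4, named here for its tie to TUSC5 with its values known, had 1 fragment in all 6 libraries together.

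Of the 2 adiponectin receptors, ADIPOR1 was not called in any tissue, at 66.0 and 88.5 FPKM in lymph node (1.35-fold), 79.7 and 91.3 FPKM in spleen (1.16-fold) and 121 and 107 FPKM in thymus (0.884-fold, 0.762 to 1.03), and is named with its values known. ADIPOR2 was 3.86-fold higher in lymph node (38.4 and 147 FPKM), 1.09-fold in spleen and 1.27-fold in thymus. The adiponectin-binding cadherin CDH13 was called higher in all 3 tissues by FPKM, with log2 ratios of 4.37, 3.35 and 1.34. Its fragments gave 2.64-fold in lymph node, 2.73-fold in thymus and, against the call, a 1.59-fold lower value in spleen (1.15 to 2.20), so the size in lymph node and the direction in spleen depend on the FPKM calculation. Of this list 3 of 8 genes were higher in lymph node (median 0.57, or 0.45 with genes at 0 placed at their bound), the third being PRKAG3 on 0 and 4 fragments, and 3 of 8 in thymus (median 0.60, or 0.41), namely CDH13, the nuclear receptor PPARA on 19 and 77 fragments, and PRKAA2 on 1 fragment. In spleen 1 of 9 was higher, CDH13, and 1 lower, PRKAA2, again on 1 fragment (median 0.10).

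PPARG, the nuclear receptor that drives fat-cell differentiation, stood at 26.1 and 110 FPKM in lymph node, 245 and 230 FPKM in spleen and 7.73 and 19.2 FPKM in thymus. The spleen of both genotypes thus held the most PPARG and the fewest ADIPOQ fragments. KLF5 was higher in lymph node (2 and 18 fragments) and thymus (6 and 44 fragments). Of the transcription factor list 2 of 4 genes were higher in lymph node (median 1.48), 0 of 3 in spleen (median 0.18) and 2 of 3 in thymus (median 1.21), and none was lower.

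All 7 measured genes of the list of other adipokines and fat-cell surface proteins were higher in lymph node (median 3.37, or 2.99 with genes at 0 placed at their bound). Resistin, RETN, had 0 and 68 fragments in lymph node, 2 and 56 in spleen and 0 and 61 in thymus, and so was higher in all 3 knockout tissues. The retinol carrier RBP4 had 1 and 192 fragments in lymph node, none in spleen, and 8 and 20 in thymus. Leptin, LEP, the other main hormone of fat cells, had 1 and 9 fragments in lymph node and 3 or fewer in each other library, and is named with its values known. In spleen 1 of 3 was higher, RETN (median 0.35), and in thymus 4 of 6, RETN, RBP4, UCP3 and caveolin CAV1 (median 1.26), and none was lower.

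**Figure D4:**
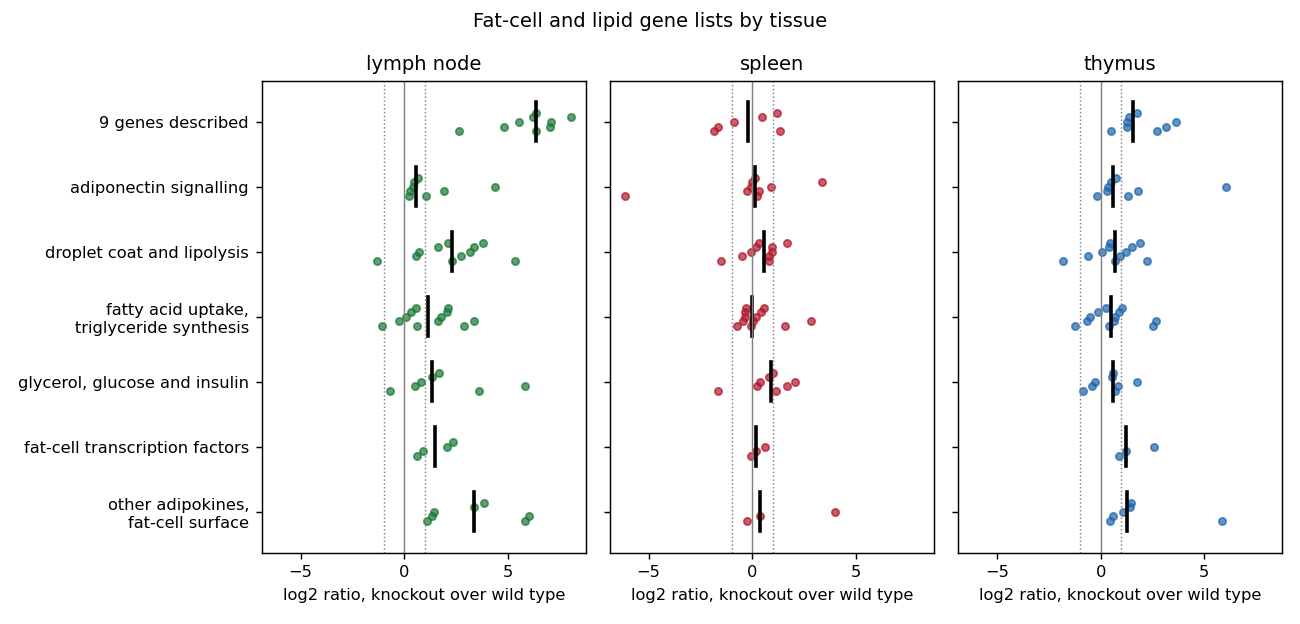
log2 ratio of knockout over wild type for each measured gene of the 9 and of the 6 other lists, by tissue; points are genes, black bars list medians, and dotted lines the size of a call. In lymph node the 9 genes lie between 2.63 and 8.05, and in spleen the 6 measured lie between -1.86 and 1.34.

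Each gene's FPKM in the 6 libraries was expressed as percent of their sum, and 2795 other genes with at least 5 FPKM in 1 library were ordered by how far these percentages differ from those of ADIPOQ (0 for the same distribution, 100 for no overlap). ADIPOQ had 82.6% in the knockout lymph node, 15.2% in the knockout thymus and 1.72% in the wild-type thymus. The nearest gene was FMO1, a flavin monooxygenase, at a distance of 4.95, with 78.6% in the knockout lymph node and 19.1% in the knockout thymus. Next came LGALS12, a galectin of fat cells (5.50), PC (5.53), myocilin, MYOC (5.56), RBP4 (6.47), CIDEA (6.97), the uncoupling protein UCP3 (7.44), the carbonic anhydrase CA4 (7.66), the lactate receptor HCAR1 (7.77) and the carboxylesterase CES1 (8.35). Some of these rest on few fragments: LGALS12 had 25 in the knockout lymph node and 1 and 3 in the wild-type and knockout thymus. The distance of PC depends on the FPKM calculation. Counting error of the distances was not computed, so the order among genes at like distances is not firm. The median over all 2795 genes was 69.6, and 12 lay within 10.

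Of the other 8 members 6 lay within 10 of ADIPOQ, the nearest being PLIN1 at 3.47. SMAF1 lay at 17.4, having 100% in the knockout lymph node, and ABHD5 at 37.1, with 45.6% there. The measure rests on 6 libraries that include the knockout lymph node by which these genes stand out, so it describes a shared distribution and tests nothing.

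**Figure D5:**
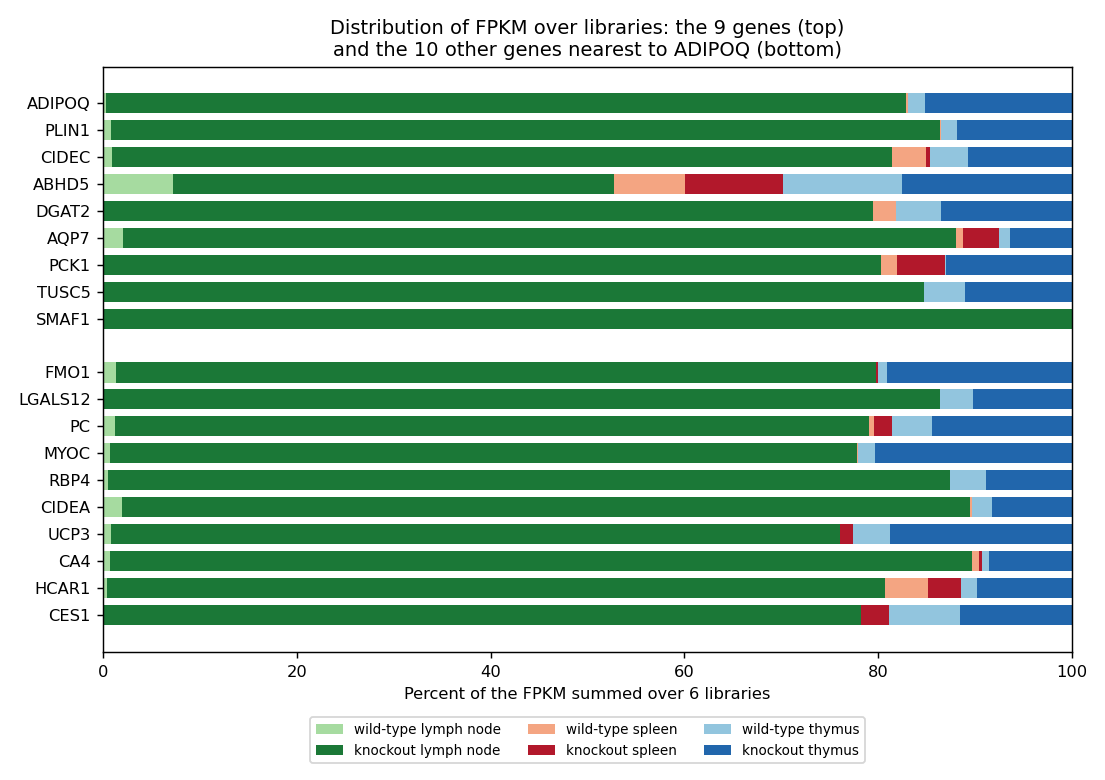
Percent of each gene's FPKM, summed over the 6 libraries, that lies in each library, for the 9 genes (top) and the 10 other genes with the distribution nearest to ADIPOQ (bottom). The knockout lymph node holds between 75.3 and 100% for all genes shown except ABHD5, at 45.6%.

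Markers of several other cell types also differed between the same libraries, and their part in the result was not tested. Their counts, too, stand beside the shares of all measured genes given above. In lymph node the red-cell gene HBB stood at 376 and 6738 FPKM, and its values were 912 and 4782 FPKM in thymus and 41406 and 18970 FPKM in spleen. Fibroblast markers were higher in 2 of 5 cases in lymph node (sum 3784 and 6369 FPKM), lower in 5 of 5 in spleen (4071 and 1713 FPKM) and higher and lower in 1 each in thymus (1811 and 2096 FPKM). Endothelial markers were higher in 1 of 3 cases in lymph node (1222 and 2203 FPKM), 0 of 3 in spleen (320 and 392 FPKM) and 3 of 3 in thymus (91.3 and 220 FPKM). The 2 measured macrophage markers, VSIG4 and MSR1, were both higher in lymph node (168 and 764 FPKM) and thymus (58.4 and 302 FPKM). They went opposite ways in spleen (324 and 65.1 FPKM). CD163, also a listed macrophage marker, was at 0 in every library, spleen included, so a listed gene at 0 throughout may not have been measurable here.

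T-cell markers were lower in 5 of 5 cases in the knockout lymph node, where they summed to 1292 and 125 FPKM, in 2 of 5 in spleen (483 and 233 FPKM) and in 3 of 5 in thymus (5431 and 2809 FPKM). B-cell markers were lower in 4 of 4 cases in lymph node (1493 and 4.50 FPKM), 4 of 4 in spleen (496 and 6.63 FPKM) and 2 of 4 in thymus (149.7 and 185 FPKM). In such bulk samples fewer cells of a type, less RNA per cell and a larger share of neighbouring tissue cannot be told apart. PCK1 is also made in kidney and liver, and a part of these tissues was not tested. Of the 2 listed kidney tubule markers, SLC34A1 was at 0 in all 6 libraries, as were 768 of the 4122 listed genes. AQP2 was at 0 in both lymph node and both thymus libraries and at 0.440 FPKM in the knockout spleen. A gene at 0 in every library does not show that a tissue is absent. The liver markers ALB, TTR and FGB were between 0 and 1.78 FPKM in every library. APOA1, the fourth, stood at 112 and 264 FPKM in lymph node, 350 and 374 FPKM in spleen and 28.7 and 34.9 FPKM in thymus. Skeletal muscle markers summed to 0.869 and 1.57 FPKM in lymph node, 2.38 and 1.57 FPKM in spleen and 33.0 and 50.2 FPKM in thymus, with 3 to 5 of the 7 at 0 in each library.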

How the data were processed

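Lymph node, spleen and thymus RNA was sequenced with a stranded total RNA kit, per the labels' protocols. Per the submitters' processing notes, FastQC 0.11.9, Trimmomatic 0.39, STAR 2.7.9a, Cufflinks 2.2.1 and Sscrofa11.1 were used; the sources used here give no settings, annotation or use of strand. FPKM values were deposited by the authors, 1 table per tissue. The deposited tables of estimated counts carry 1 factor per library: divided by that factor, taken as the commonest value of the column, 97.0 to 99.2% of values above 0 came within 0.02 of a whole number and all were rounded. Since only part of the genes is listed, totals are not library depths. Members and lists were chosen with earlier results of these data known. With 1 library per group no test across genes was made. No fit across tissues was made.

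Named genes are the 9 members, up to 3 called genes per list with the largest log2 ratio in lymph node, the 10 genes most like ADIPOQ, and RAG2. Symbols were matched to RefSeq for Sscrofa11.1, whose coordinates are used, counted from 1. The spans of PLIN1, CIDEC, AQP7 and TUSC5 overlap other RefSeq genes, 0 of which are in the tables. Lists were also searched under older names. FABP4, CEBPA and other list genes that found no row were not analysed here. Calculations were tested on simulated counts with known changes. Alternatives were other pseudocounts, expression minima, scalings (edgeR 4.0.16 TMM factors, DESeq2 1.42.0 size factors, totals), centring, a threshold of 2 and the counting interval. Python 3.11.15 with scipy 1.17.1, pandas 2.3.3, numpy 2.4.6 and matplotlib 3.10.9 and R 4.3.3 were used.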

Additional observations from a re-analysis of the deposited data

Results flagged for a closer look

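CIDEC and DGAT2 were called in opposite directions in different tissues, a difference that was not tested. The log2 ratio of CIDEC was 5.53 in lymph node and 1.27 in thymus, against -1.86 in spleen on 8 and 1 fragments. The log2 ratio of DGAT2 was 6.22 in lymph node and 1.36 in thymus, against -1.67 in spleen on 1 and 0 fragments.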

How the results depend on the processing

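The 9 genes were called higher in lymph node and none lower under all 11 alternatives. Elsewhere the counts moved, mostly on few fragments. With a pseudocount of 5 FPKM the members called were 0 higher and 0 lower in spleen and 3 higher in thymus, and the other fat-cell genes called lower were 0 in lymph node and 1 in thymus. With a threshold of 2 the members called were 0 and 0 in spleen and 3 higher in thymus. The other genes were then 20 higher and 0 lower in lymph node, 4 higher and 1 lower in spleen, and 6 higher and 0 lower in thymus. A minimum of 5 FPKM left 0 members called either way in spleen, and 1 other gene lower in each of lymph node and thymus. A minimum of 10 fragments left 0 members lower in spleen and 1 other gene lower in each tissue. Counts scaled to totals, TMM or DESeq2 size factors each gave 1 member lower in spleen, and so did the counting interval, which left 1 other gene lower in each of lymph node and spleen. The median of all genes moved by over 0.1 under 1 scaling, totals in thymus, to 0.12, where the log2 ratio of ADIPOQ was 3.49. No log2 ratio of a called member changed sign. In lymph node the members' median was 8.10 with a pseudocount of 0.1 FPKM, 4.09 with 5 FPKM and 5.50 to 5.52 with scaled counts; in spleen it was 1.16 with a minimum of 10 fragments. Of the genes nearest to ADIPOQ 9 were shared when the members' mean distribution was the reference, and 10 with a minimum of 1 FPKM.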
